A study of Mus musculus with 2 samples.

Results

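Visceral endoderm nuclei high for Cubn and A1cf were taken from a single-nucleus multiome of mouse embryos, in which nuclear RNA and open chromatin are read from the same nucleus. They were selected on measured RNA. Nuclei with 3000 to 30000 RNA unique molecular identifiers (UMIs, 1 per captured RNA molecule) and at least 2000 peak counts were scored as the mean ln(1 + UMIs per 10000) over Cubn, A1cf, Abcc2, Slc2a2, Aass, Bmp6 and Car8, minus the same mean over Sfrp5, Ltk, Tfec and Nrk. The 650 highest scores are the members. They made up 5.60% of the 11605 nuclei in the depth range and 4.24% of the 15341 deposited.

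The study pooled mouse embryos at embryonic day 7.0 (E7.0), with no treatment named, separated their cells with the enzyme mix TrypLE and isolated nuclei. There were 2 samples, 1 RNA library and 1 accessibility library of those nuclei, so the differences below come without replicates or statistical tests. The 95% intervals cover counting error only and say nothing of the spread between embryos, which the pool did not keep apart. Some label fields name sections of gut, goblet cells and the strain RedMUC298trTg, against the title, age and protocol, which name E7.0 embryos. In the members, 8 genes of goblet and intestinal epithelium together reached 5.28 CPM (counts scaled to a group total of 1000000). All other nuclei had 1.96 CPM, a fold of 2.70 (1.93 to 3.69). Other visceral endoderm nuclei, a group defined below, had 4.84 CPM, a fold of 1.09 (0.745 to 1.58). Muc2 and Fcgbp were at 0 UMIs in members. Most of the members' counts came from Fabp2, an intracellular fatty acid binding protein. Fabp2 was at 4.16 CPM against 3.46 CPM in other visceral endoderm. Its promoter was 9.23-fold more open in members than in all other nuclei. Against other visceral endoderm it was 1.57-fold more open (1.13 to 2.17).

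Visceral endoderm is the absorptive epithelium that encloses the early mouse embryo. Its cells take up maternal protein and lipid through cubilin, amnionless and megalin, digest the cargo in lysosomes, and secrete apolipoproteins and plasma carrier proteins, a programme shared with liver, gut and kidney tubule and driven by hepatocyte nuclear factors. Visceral endoderm over the extraembryonic region is tall and strongly endocytic, while that over the epiblast is flatter and holds the anterior signalling centre, which secretes inhibitors of Nodal and Wnt.

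The score of the members ran from 0.801 to 1.74, with a median of 1.001. Just inside the limit were scores of 0.8020, 0.8014 and 0.8013, and just outside 0.8009, 0.8005 and 0.7993. Within 0.1 of the limit lay 179 members and 187 other nuclei. The score cuts a continuous range, and the members are its upper end and not a separate type. A second group was formed for comparison from the 1138 non-members whose mean level of 8 visceral endoderm genes (among them Ttr, Apob, Hnf4a, Amn, Apom, Afp and Lrp2) reached the 25th percentile of the members. These other visceral endoderm nuclei were divided into 93 in which Sfrp5 exceeded the mean of Ltk, Tfec and Nrk (the Sfrp5 side) and the remaining 1045. They too are a range of a score.

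**Figure D1:**
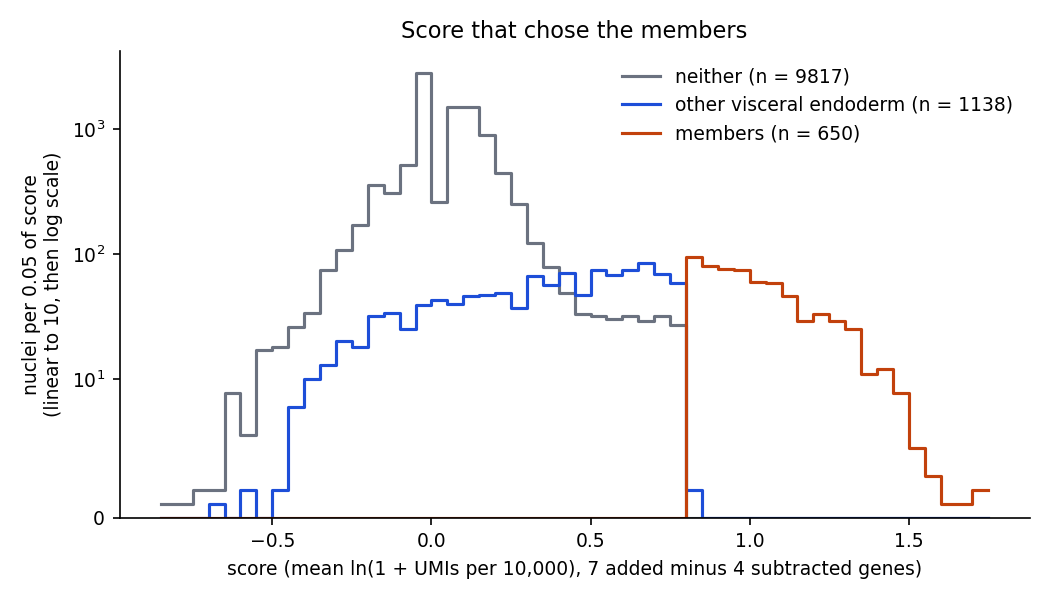
Number of nuclei (vertical axis, linear to 10 and then log) in steps of 0.05 of the score (horizontal axis) for the 650 members, the 1138 other visceral endoderm nuclei and the 9817 nuclei in neither group. The counts run on without a gap across the limit at 0.801, with other visceral endoderm nuclei spread from -0.671 up to that limit.

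Depth was similar across groups. Members had a median of 12801 UMIs, 4628 detected genes and 20407 peak counts, against 11287 UMIs and 19389 peak counts in all 10955 other nuclei and 13804.5 UMIs and 18043 peak counts in other visceral endoderm. The members summed to 8903241 UMIs and 13470987 peak counts. Scrublet called 54 members as doublets, or 8.31% (6.30 to 10.7), against 9.40% of other visceral endoderm nuclei and 6.11% of all other nuclei. The part of doublets in the values below was not tested, apart from a recalculation without them.

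The label was checked on marker lists. All 12 visceral endoderm markers were at least 2-fold higher in members than in all other nuclei, and their summed level was 10828 CPM (10760 to 10897) against 3065 CPM. Every member had such RNA, from 6.64 to 315 UMIs per 10000 with a median of 102. The lowest members lay within the range of nuclei in neither group, from 0 to 151 with a median of 10.6. Other visceral endoderm, chosen partly on these genes, started at 44.3. Having such RNA therefore does not by itself set a member apart. Because RNA chose the members, all RNA values are a description. Over all genes with at least 200 UMIs in both groups together, 8.39% were at least 2-fold higher and 21.3% at least 2-fold lower in members than in all other nuclei. Against the other visceral endoderm nuclei these shares were 0.336% higher and 1.70% lower.

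Markers of other cell types differed by list. The counts of genes below stand beside 8.39% at least 2-fold higher and 21.3% lower over all genes against all other nuclei. The 8 epiblast genes (Pou5f1, Sox2 and others) summed to 692 CPM in members, 817 CPM in other visceral endoderm and 1611 CPM in all other nuclei. In single members they ran from 0 to 25.6 UMIs per 10000, and 6 of 8 were at least 2-fold lower than in all other nuclei. Primitive streak genes summed to 143 CPM against 245 CPM in other visceral endoderm and 590 CPM in all other nuclei, with 8 of 8 lower. Immune genes were at 1.01 CPM, with Ptprc, C1qa, Tyrobp and Cd3e at 0. The 9 parietal endoderm genes summed to 1549 CPM against 1808 CPM in other visceral endoderm and 810 CPM in all other nuclei, a fold of 1.91 over the latter (1.88 to 1.95), with 4 of 8 tested called higher and none lower. Most of that list was basement membrane genes, including Col4a1 at 396 CPM and Sparc at 290.3 CPM, while Thbd and Plat had 3 and 15 UMIs. Haemato-endothelial genes summed to 201 CPM, 1.51-fold above all other nuclei (1.44 to 1.59), although 6 of 7 tested were called lower and only Runx1 higher. Genes of the decidua summed to 78.3 CPM, against 92.5 CPM in other visceral endoderm and 45.9 CPM in all other nuclei. The part of RNA from other cells in the members' values was not tested.

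Chromatin was used by the selection only through the minimum of 2000 peak counts, and so is a separate measure of the members. The promoters of the 7 genes added in the score are where the RNA and the chromatin can first be set side by side. The 250 bases before the RefSeq start (build GRCm38.p6) are shown for 3 score genes whose promoter peak was more open in members (that of A1cf with fewer than the 400 counts needed for a call), for Amn, the partner of cubilin, and for 2 score genes whose promoter peak was not 2-fold more open. Sequences run 5′ to 3′ toward the start, and capitals mark CpG dinucleotides. RefSeq starts lay within 63 bp of the start in the files for 5 of these 6 genes, and at 609 bp for Bmp6.
Abcc2, chr19:43782058-43782307, plus strand: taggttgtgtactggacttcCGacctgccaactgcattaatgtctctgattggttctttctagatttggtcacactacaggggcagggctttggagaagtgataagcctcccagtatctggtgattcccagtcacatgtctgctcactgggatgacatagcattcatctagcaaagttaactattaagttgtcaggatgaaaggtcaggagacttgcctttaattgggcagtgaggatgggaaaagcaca
A1cf, chr19:31868563-31868812, plus strand: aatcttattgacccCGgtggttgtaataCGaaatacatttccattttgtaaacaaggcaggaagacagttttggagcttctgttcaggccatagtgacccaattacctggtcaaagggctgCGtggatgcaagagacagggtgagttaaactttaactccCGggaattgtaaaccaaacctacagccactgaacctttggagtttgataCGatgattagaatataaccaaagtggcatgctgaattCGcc
Cubn, chr2:13491877-13492126, minus strand: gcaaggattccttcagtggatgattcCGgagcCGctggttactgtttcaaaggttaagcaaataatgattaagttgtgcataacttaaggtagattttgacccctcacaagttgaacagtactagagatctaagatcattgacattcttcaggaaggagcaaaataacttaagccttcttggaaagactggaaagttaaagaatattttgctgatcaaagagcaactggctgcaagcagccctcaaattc
Amn, chr12:111270846-111271095, plus strand: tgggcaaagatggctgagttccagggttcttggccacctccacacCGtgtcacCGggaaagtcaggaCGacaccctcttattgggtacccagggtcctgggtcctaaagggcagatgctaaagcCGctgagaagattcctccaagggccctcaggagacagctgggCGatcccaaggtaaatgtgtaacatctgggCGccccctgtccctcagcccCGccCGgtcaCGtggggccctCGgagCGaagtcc
Aass, chr6:23132987-23133236, minus strand: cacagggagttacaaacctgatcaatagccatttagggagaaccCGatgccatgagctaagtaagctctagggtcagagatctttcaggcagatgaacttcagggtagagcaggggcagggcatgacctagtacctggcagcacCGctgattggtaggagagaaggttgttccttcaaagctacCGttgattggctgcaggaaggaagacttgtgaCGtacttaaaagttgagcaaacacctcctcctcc
Bmp6, chr13:38345466-38345715, plus strand: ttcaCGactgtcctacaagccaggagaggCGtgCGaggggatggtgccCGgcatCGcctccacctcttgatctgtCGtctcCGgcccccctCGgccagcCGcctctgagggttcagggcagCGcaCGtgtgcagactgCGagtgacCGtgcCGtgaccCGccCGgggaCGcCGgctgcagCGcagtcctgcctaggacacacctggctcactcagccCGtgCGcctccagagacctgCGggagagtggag

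The promoter of Abcc2 held 1 CpG at 45.6% G and C, that of Cubn 2 at 39.6% and that of A1cf 6 at 43.2%. Bmp6 held 22 at 68.8%. Over 32851 mouse promoter windows of this length the median was 6 CpG and 52.4% G and C. CpG number did not sort these 6 genes by promoter opening, as Amn held 11 CpG and Aass 4. The subtracted gene Nrk, not shown, held 24 at 76.4%, with its promoter 2.53-fold more open in members than in all other nuclei. Only part of the Bmp6 window lies in its promoter peak, which ends at chr13:38345526. Matches were sought on both strands to part of an HNF4 site (CAAAGTCCA, in 0.384% of all windows), a GATA site (AGATAA, 9.99%) and a FOX site (TGTTTAC, 3.17%). A1cf had a FOX match 203 bases before its start on the minus strand, and the other 5 windows shown had none of these letters.

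Cubn encodes cubilin, the endocytic receptor for albumin, transferrin and vitamin-bound carriers. In members it stood at 8212 CPM (8152 to 8271), with 5 to 395 UMIs in a nucleus and a median of 104. Other visceral endoderm had 5992 CPM and all other nuclei 999.6 CPM. With every nucleus thinned to 3000 UMIs, a Cubn UMI was seen in 99.2% of other visceral endoderm nuclei. It was seen in 23.3% of epiblast-high nuclei, the 2000 with the highest epiblast markers among the 9817 in neither group. The promoter peak of Cubn at chr2:13491653-13492607 was 4.43-fold more open in members than in all other nuclei (3.67 to 5.33) and 1.27-fold more open than in other visceral endoderm (1.01 to 1.58). Promoters were counted as peaks within 1000 bp of a start. Among all 19652 promoters with at least 400 counts, 3.04% were at least 2-fold higher and 16.1% at least 2-fold lower in members against all other nuclei. Against other visceral endoderm the shares were 0.0145% higher and 0.181% lower, and the Cubn promoter was not among them.

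Peaks outside promoters, called distal here, were also more open at Cubn. Those within 50000 bp of a gene's starts were counted to it. Of 10 such peaks at Cubn with at least 400 counts, 9 were at least 2-fold more open in members than in all other nuclei and none was less open. Over all 81425 distal peaks with that many counts, at any distance from a gene, 12.7% were at least 2-fold higher and 42.1% at least 2-fold lower. The peak with the highest fold lay inside Cubn, 3903 bp from its start at chr2:13487052-13487909, and was 8.82-fold more open in members (7.15 to 10.8) and 1.70-fold more open than in other visceral endoderm (1.33 to 2.16). It had a count in 19.4% of members, 11.0% of other visceral endoderm nuclei and 2.23% of all other nuclei. Against other visceral endoderm, 0.524% of distal peaks were at least 2-fold higher and 2.74% at least 2-fold lower. Of the 5 Cubn distal peaks tested there, none was called in either direction and 3 had a fold above 1.

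Both transporters of the score were higher in members. Abcc2, which exports organic anions and conjugates across the apical membrane, had 563 CPM in members, 331 CPM in other visceral endoderm and 56.0 CPM in all other nuclei. Members held 0 to 27 UMIs of it, with a median of 7. Its promoter peak at chr19:43781717-43782622 was 8.65-fold more open than in all other nuclei (7.34 to 10.2) and 1.36-fold more open than in other visceral endoderm (1.14 to 1.63). Of 11 tested distal peaks of Abcc2, 4 were called higher than in all other nuclei and 2 lower. Over all distal peaks the shares were 12.7% and 42.1%. Against other visceral endoderm, none of 3 tested was called and 2 had a fold above 1. Slc2a2, the low-affinity glucose transporter of liver and pancreatic islet, had 166 CPM in members and 95.9 CPM in other visceral endoderm. No peak lay at its start, but 7 of its 10 tested distal peaks were called higher than in all other nuclei and 1 lower. The one with the highest fold, 1458 bp from the start and inside the gene, was 8.84-fold more open (6.86 to 11.3). Of 4 distal peaks of Slc2a2 tested against other visceral endoderm, none was called and 2 had a fold above 1.

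A1cf and Aass are metabolic genes. A1cf, the RNA-binding cofactor of apolipoprotein B mRNA editing, had 52.6 CPM in members, 17.97 CPM in other visceral endoderm and 3.22 CPM in all other nuclei. Counts per nucleus were low, 0 to 6 UMIs with a median of 0. Its promoter peak, with 82 counts in members and 225 in all other nuclei, was below the minimum for a call. It was 6.04-fold more open in members than in all other nuclei (4.15 to 8.64), and 1.01-fold that of other visceral endoderm (0.673 to 1.501). In RNA, A1cf was 2.93-fold higher than in other visceral endoderm (2.53 to 3.39). Apobec1, the editing enzyme that A1cf serves, had 5 UMIs in the members, and the alternative cofactor Rbm47 had 358 CPM against 359 CPM in other visceral endoderm. Aass, the first enzyme of lysine breakdown, had 111 CPM against 58.5 CPM in other visceral endoderm. Its promoter peak was 1.38-fold that of all other nuclei (1.15 to 1.65), while a peak 5325 bp away inside the gene was 8.89-fold more open (6.98 to 11.3).

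Bmp6 and Car8 were the score genes that set the members furthest from other visceral endoderm. Bmp6, a secreted ligand of the bone morphogenetic protein (BMP) family, had 361 CPM in members (348 to 373), 105 CPM in the rest of visceral endoderm, 22.2 CPM on the Sfrp5 side and 25.7 CPM in all other nuclei. Members held 0 to 24 UMIs with a median of 4. Its promoter peak was 1.18-fold that of all other nuclei (1.003 to 1.38). Peaks inside the gene differed more: chr13:38350902-38351570 was 7.59-fold and chr13:38351818-38352681 7.45-fold more open in members than in all other nuclei. Against other visceral endoderm they were 1.51-fold (1.12 to 2.05) and 1.49-fold (1.24 to 1.80) more open.

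Car8, a carbonic anhydrase relative that lacks the enzyme activity, had 56.9 CPM in members and 14.4 CPM in other visceral endoderm, a 3.94-fold difference (3.38 to 4.61). Its counts were low, 0 to 9 UMIs in a nucleus with a median of 0. The promoter peak did not differ beyond counting error, at 1.10-fold that of all other nuclei (0.834 to 1.42). In contrast, chr4:8212651-8213558 and chr4:8219326-8220227, both inside the gene, were 11.7-fold (9.44 to 14.6) and 10.4-fold (8.17 to 13.3) more open. Against other visceral endoderm they were 2.04-fold (1.59 to 2.62) and 2.23-fold (1.67 to 3.002) more open. Among peaks with at least 400 counts, Car8 was the only one of the 7 genes with a distal peak past 2-fold in that comparison. The first of the Car8 peaks had that many counts and the second had not. Few peaks had: 1 each at Car8 and Bmp6, 2 at Aass, 3 at Abcc2, 4 at Slc2a2, 5 at Cubn and none at A1cf. With so few, Car8 is not set apart from the other genes by this. Whether the named peaks lie in exons or introns was not annotated here.

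**Figure D2:**
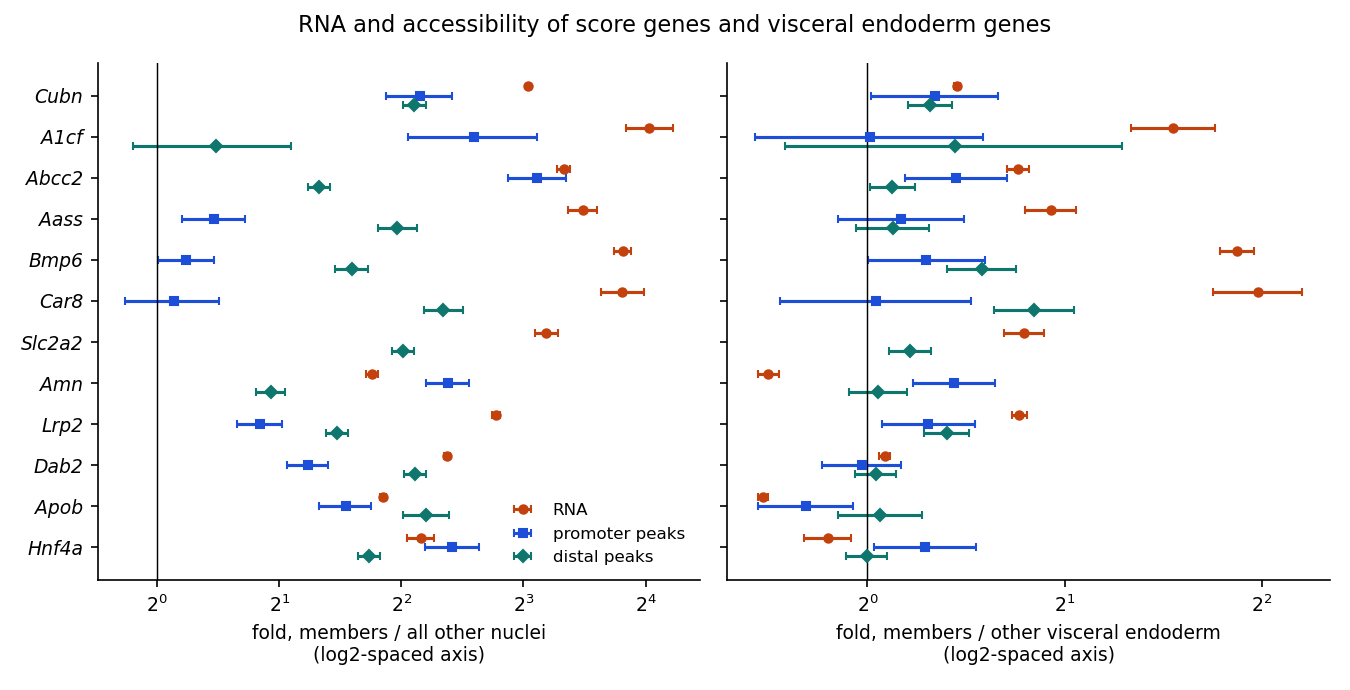
Fold of members (horizontal axis, log2-spaced) over all other nuclei (left) and over other visceral endoderm (right) in RNA, promoter peaks and distal peaks, for the 7 score genes and 5 further visceral endoderm genes, with 95% counting intervals. Bmp6, Car8 and Aass have promoter folds near 1 and distal folds of 3.02 to 5.08 on the left. On the right, summed distal folds of Bmp6 and Car8 reach 1.496 and 1.79.

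The 4 subtracted genes behaved differently from each other. Sfrp5, a secreted Wnt inhibitor, had 1.12 CPM in members, 204 CPM on the Sfrp5 side and 9.12 CPM in the rest of visceral endoderm. Its promoter peak was 0.617-fold that of all other nuclei (0.490 to 0.767), lower than the folds of all 6 promoter peaks of added genes. Ltk, a receptor tyrosine kinase, was at 1.12 CPM against 9.67 CPM in other visceral endoderm. Tfec, a transcription factor of the MiT family, and Nrk, a kinase, were lower in RNA than in other visceral endoderm but not absent. Tfec had no promoter peak. Of its 4 tested distal peaks, 3 were called higher than in all other nuclei and none lower. The one with the highest fold, inside the gene, was 9.27-fold more open (7.13 to 12.0). Against other visceral endoderm it was 1.53-fold more open (1.14 to 2.04), on too few counts for a call. Sfrp5 had 1 of 12 distal peaks called higher than in all other nuclei and 4 lower. Ltk had none of 5 higher and 1 lower, and Nrk had 1 tested and none called. Nrk had 344 CPM in members and 826 CPM in other visceral endoderm, with 152 CPM in all other nuclei. The Nrk promoter was 2.53-fold more open in members than in all other nuclei and 1.10-fold that of other visceral endoderm (0.888 to 1.37).

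**Figure D3:**
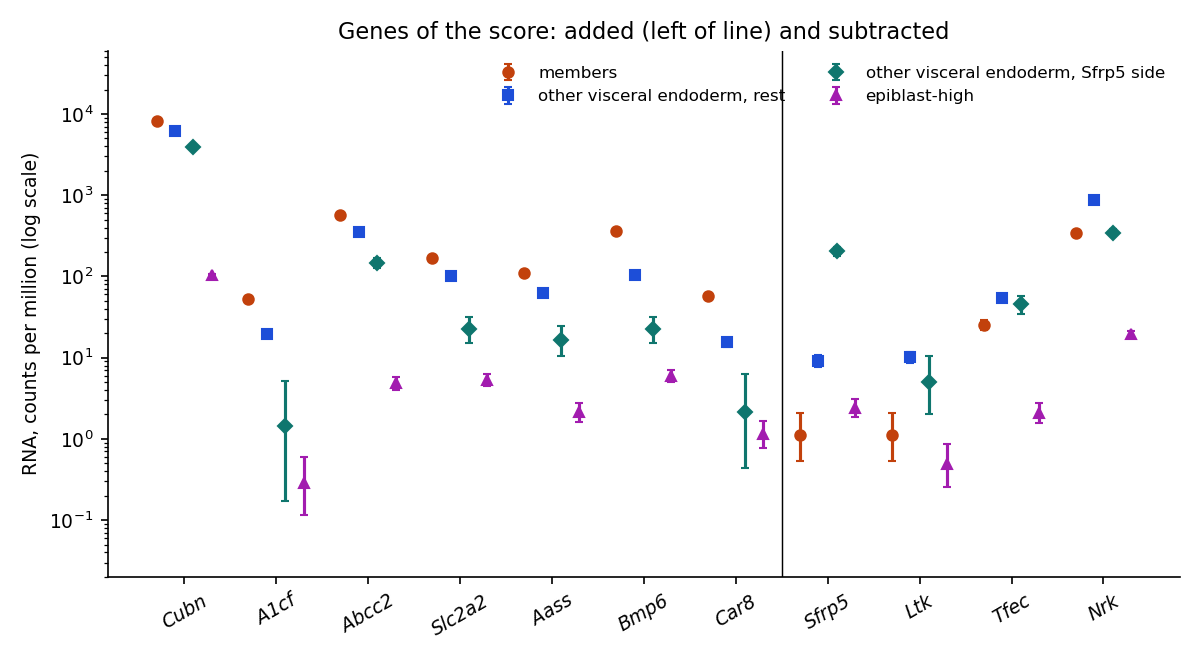
RNA level in CPM (vertical axis, log scale) of the 7 added and 4 subtracted genes, with 95% Poisson intervals. Groups are members, other visceral endoderm apart from the Sfrp5 side (the rest), the Sfrp5 side and epiblast-high nuclei. The last are the 2000 nuclei of neither group with the highest epiblast markers. Added genes fall in the order members, rest, Sfrp5 side, while Nrk is highest in the rest at 869 CPM. All 11 genes chose the members, and the 4 subtracted genes also divided the Sfrp5 side from the rest. These orders are therefore not independent of how the groups were chosen.

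To see how many score genes a nucleus showed at equal depth, each was thinned to 3000 UMIs. At least 3 of the 7 added genes were then seen in 76.2% of members (72.7 to 79.4), 36.3% of other visceral endoderm nuclei (33.5 to 39.2) and 0.150% of epiblast-high nuclei, at median full depths of 12801, 13804.5 and 11354 UMIs. Without thinning the shares were 99.1%, 75.7% and 1.70%. The members' share follows from the selection, which used these 7 genes. The epiblast share is given as the background, from nuclei left after members and other visceral endoderm were taken out. After thinning, the share was 1.15% over all nuclei in neither group and 4.80% over all other nuclei. Free RNA itself was not measured. Members without a UMI of A1cf or Car8 at 3000 UMIs were the majority, since 15.7% and 15.1% had one.

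Chromatin was then compared over all peaks. Each nucleus was placed by its open peaks alone, and its 15 nearest neighbours were taken. Of the members' neighbours, 52.4% were members, 36.2% other visceral endoderm and 11.4% neither, although members are 5.60% of nuclei in the depth range. Among 650 members, 393 had at least 8 member neighbours and 12 had none. Neighbours of the 1045 other visceral endoderm nuclei off the Sfrp5 side were members in 24.4% of cases, and those of the 93 on the Sfrp5 side in 4.09%. Nuclei in neither group had 0.996% member neighbours. The Sfrp5 side supplied 0.585% of the members' neighbours and is 0.801% of nuclei in the depth range.

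**Figure D4:**
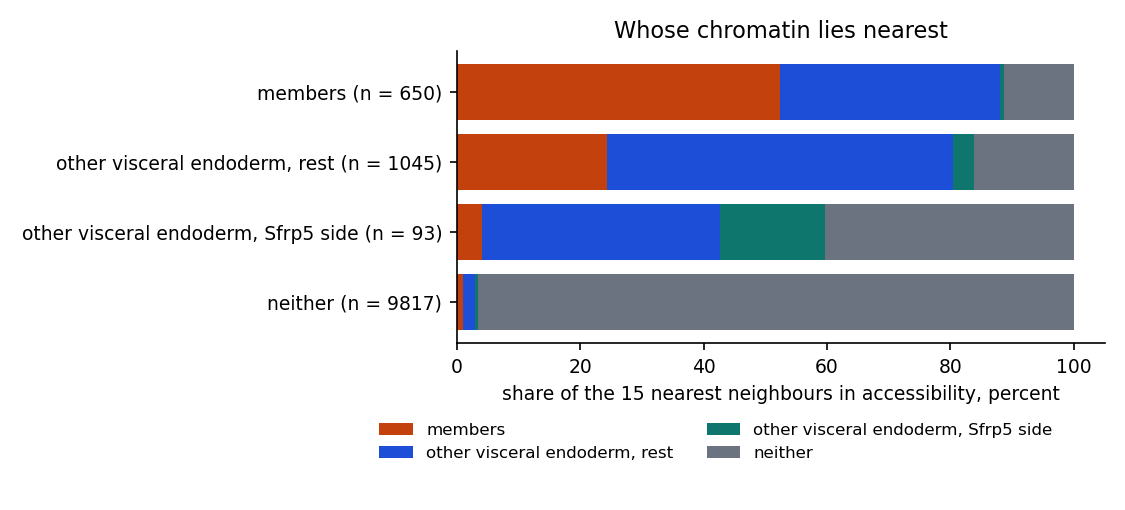
Make-up of the 15 nearest neighbours in accessibility (horizontal axis, percent) for members, other visceral endoderm apart from the Sfrp5 side, the Sfrp5 side, and neither. Members draw 52.4% of neighbours from members, and the Sfrp5 side draws 4.09%.

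Other endocytic genes went in both directions. Of 12 endocytic receptors and adaptors, Cubn included, 6 were at least 2-fold higher in members than in all other nuclei and 3 at least 2-fold lower, where all genes gave 8.39% and 21.3%. Lrp2 (megalin, the partner receptor of cubilin) had 1240.2 CPM, against 727 CPM in other visceral endoderm and 275 CPM on the Sfrp5 side. Amn, which carries cubilin to the membrane, went the other way, at 455 CPM against 644 CPM in other visceral endoderm. Both genes helped to choose the comparison group, so their difference from it is shaped by that choice. Dab2, the clathrin adaptor of this pathway, was nearly level at 1987 and 1871 CPM. The transferrin receptor Tfrc (39.99 CPM) was below all other nuclei, at 132 CPM. At the promoters, 4 of 12 were called higher and none lower (3.04% and 16.1% over all promoters), led by Amn at 5.21-fold (4.61 to 5.87).

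Many lysosomal genes were above all other nuclei. Of 17 tested, 10 were called higher and 1 lower (8.39% and 21.3% over all genes), with a median fold of 2.58 against 0.865 over all genes. Ctsl and Lgmn, proteases of the lysosome, had 1762 and 644 CPM in members and 1876 and 644 CPM in other visceral endoderm. Tfeb, a transcriptional regulator of lysosomal genes, had 99.2 CPM in members against 61.7 CPM in other visceral endoderm and 17.0 CPM in all other nuclei. Against other visceral endoderm none of the 17 was called, where over all genes only 0.336% were called higher and 1.70% lower.

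Apolipoproteins and plasma carriers were high in members against all other nuclei. Of 18 tested, 17 were called higher (8.39% over all genes), and 12 of 17 promoters were (3.04% over all promoters). Against other visceral endoderm none of 17 tested was called in either direction, where over all genes 0.336% were called higher and 1.70% lower. Their median fold there was 0.739, with 3 above 1, and the list summed to 8577 CPM against 11811 CPM. Apob, the structural protein of lipoproteins, had 1944 CPM in members, 2803 CPM in other visceral endoderm and 539.8 CPM in all other nuclei. Ttr, the thyroid hormone carrier, had 782 CPM against 1282 CPM, and Afp, the fetal albumin relative, 315 CPM against 601 CPM in other visceral endoderm. These 3 genes, and Apom of the same list, helped to choose the comparison group. Apoe and Apoa1, which did not, had 2115 CPM against 3009 CPM and 1214 CPM against 1859 CPM. The comparison nuclei had to reach a limit on visceral endoderm genes that members did not have to reach. The part of that limit in the lower levels of this list, Apoe and Apoa1 included, was not tested. Apoc2, the activator of lipoprotein lipase, was higher, with 834 CPM in members against 683 CPM, and its promoter was 1.40-fold more open than in other visceral endoderm (1.24 to 1.59). The adult carriers Alb, Apoh and Ahsg had 4, 0 and 0 UMIs.

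Among endoderm regulators, 6 of 15 were called higher and 2 lower than in all other nuclei, against 8.39% and 21.3% over all genes. Tfec, which the score subtracted, was among those called higher. Hnf4a, a nuclear receptor of liver and gut, had 96.5 CPM in members and 111 CPM in other visceral endoderm, which it helped to choose. The Hnf4a promoter was 5.33-fold more open than in all other nuclei (4.57 to 6.21). Gata4 had 501 CPM against 354 CPM in other visceral endoderm. Foxa1, a pioneer factor of endoderm, had 8 UMIs in members, or 0.899 CPM, against 9.49 CPM in other visceral endoderm, which is 10.6-fold lower (5.23 to 24.9) on fewer UMIs than the 200 needed for a call in that comparison.

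Of 15 transporters tested, the score genes Abcc2 and Slc2a2 included, 9 were called higher and 1 lower than in all other nuclei (8.39% and 21.3% over all genes). Abcb11, the bile salt exporter of hepatocytes, was not among them, as its RNA and its promoter were below the minimum counts. It had 71 UMIs in members (7.97 CPM) and was 15.6-fold above all other nuclei (11.1 to 22.1), with its promoter 7.74-fold more open (4.99 to 11.8). Of the 12 genes of glucose output and storage, G6pc had 0 UMIs. This allows up to 0.337 CPM taken as 3 counts, or 0.414 CPM as the upper end of the exact 95% Poisson interval. Pck1 had 6 UMIs, 7.604-fold above all other nuclei (2.34 to 21.9) but too few for a call, and its promoter was called higher. The list summed to 101 CPM, against 98.08 CPM in other visceral endoderm and 54.4 CPM in all other nuclei. In RNA, 2 of 6 tested were called higher and 2 lower than in all other nuclei. Of 10 promoters tested, 5 were called higher and none lower (3.04% and 16.1% over all promoters). Of 11 amino acid genes tested, 2 were called higher, Aass and Gldc, the glycine decarboxylase (760.2 CPM against 634 CPM in other visceral endoderm), and 3 lower. Aass is a score gene, and the shares over all genes were 8.39% and 21.3%. Tat, Hpd and Tdo2 had 0 UMIs.

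Genes of the BMP pathway went in both directions. Of 21 tested, 3 were called higher, Bmp6 of the score among them, and 6 lower than in all other nuclei. These counts are near the shares over all genes, 8.39% and 21.3%, and the median fold was 1.06 against 0.865 over all genes. Besides Bmp6, the higher genes were Smad9, a signal transducer (51.9 CPM against 28.8 CPM in other visceral endoderm and 6.40 CPM in all other nuclei), and Smad6, an inhibitor induced by BMP signals (155 CPM against 89.3 CPM). Bmp2 went the other way. It had 14.7 CPM in members, 54.8 CPM in the rest of visceral endoderm and 143 CPM on the Sfrp5 side, and was 4.22-fold lower (3.52 to 5.10) than in other visceral endoderm. Bmper, a secreted BMP binder, was 3.69-fold lower (3.04 to 4.51). The receptors Bmpr1a and Bmpr2 and the targets Id1, Id2 and Id3 lay between 0.947-fold and 1.30-fold of other visceral endoderm. The receptor Bmpr1b was 1.58-fold that of other visceral endoderm (1.30 to 1.93) but 6.51-fold lower than in all other nuclei, and the ligand Bmp7 was 1.51-fold that of other visceral endoderm (1.20 to 1.89).

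Bmp6 and Bmp2 were then counted per nucleus at 3000 UMIs. A Bmp6 UMI was seen in 62.6% of members and a Bmp2 UMI in 4.77%. On the Sfrp5 side the shares were 5.38% and 24.7%, and in the rest of visceral endoderm 23.9% and 14.7%. Epiblast-high nuclei had 1.9% and 2%. The Bmp6 shares follow from the selection. Bmp2 was not in the score but was highest on the Sfrp5 side, and Sfrp5 was subtracted, so its shares are not independent of the selection either. The Bmp2 promoter was 0.783-fold that of other visceral endoderm (0.642 to 0.952).

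Among the carbonic anhydrases, 12 were tested. Car8, which the score used, and Car7, a cytosolic enzyme, were called higher than in all other nuclei and 5 were called lower, against 8.39% and 21.3% over all genes. Car7 had 177 CPM in members, 109 CPM in the rest and 25.1 CPM on the Sfrp5 side. Car2 and Car4 ran in the opposite order, with 71.1 and 601 CPM in members, 157 and 779.6 CPM in the rest and 338 and 1556 CPM on the Sfrp5 side.

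Genes of embryonic and anterior visceral endoderm were low in members. None of the 11 was called higher and 9 were called lower than in all other nuclei, against 21.3% lower over all genes. Against other visceral endoderm, 6 of 8 tested were called lower and none higher (1.70% and 0.336% over all genes). The list summed to 143 CPM in members (135 to 151), 308 CPM in the rest and 1487 CPM on the Sfrp5 side. Nuclei in neither group had 702 CPM, above the 406 CPM of other visceral endoderm together. Cer1, a Nodal, Wnt and BMP inhibitor, had 6.63 CPM in members and 136 CPM on the Sfrp5 side, and Dkk1, a Wnt inhibitor, 14.0 and 410.2 CPM. Nodal had 7.86 CPM against 30.7 CPM in other visceral endoderm, and Krt8, an epithelial keratin, 113 CPM against 267 CPM. Sfrp5 was subtracted in the score, and the part of that choice in these levels was not tested. In chromatin, 4 of the 11 promoters were called lower than in all other nuclei and none higher, where all promoters gave 16.1% and 3.04%. Summed over the list, promoter counts were 1.05-fold those of all other nuclei (1.01 to 1.09), with 4 of 11 promoters above 1. Against other visceral endoderm they were 0.897-fold (0.853 to 0.943). There 1 of 8 promoters tested was called lower and none higher, where all promoters gave 0.181% and 0.0145%.

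**Figure D5:**
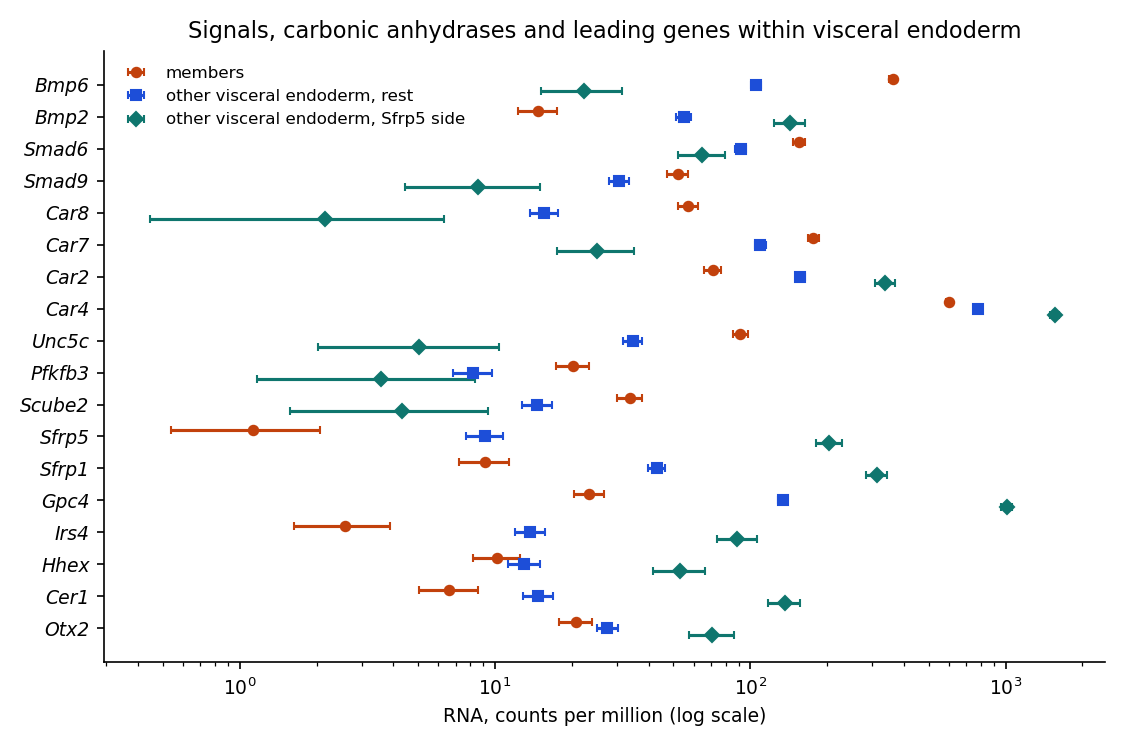
RNA level in CPM (horizontal axis, log scale) of BMP genes, carbonic anhydrases and leading genes in members, in other visceral endoderm apart from the Sfrp5 side (the rest) and on the Sfrp5 side, with 95% Poisson intervals. Bmp6 falls from 361 CPM in members to 22.2 CPM on the Sfrp5 side, and Gpc4 runs from 23.4 CPM to 1009 CPM.

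Genes were also ranked by fold, in a list or not, among those with at least 200 UMIs over both groups and a UMI in at least 10% of members (for the lowest, of other visceral endoderm nuclei). By this rule the 10 with the highest fold over other visceral endoderm were the score genes Car8, Bmp6 and A1cf, and then Ago4, Unc5c, Pfkfb3, Scube2, Lncenc1, Skap1 and Sh3tc2. Unc5c, a netrin receptor, had 91.3 CPM in members, 34.6 CPM in the rest and 5.02 CPM on the Sfrp5 side. All other nuclei had 80.9 CPM, a fold of 1.13. Lncenc1, a noncoding RNA known from pluripotent cells, had 86.8 CPM against 36.7 CPM, and its promoter was 2.28-fold more open than in other visceral endoderm (1.47 to 3.57), on too few counts for a call. Ago4, an Argonaute protein of small RNA pathways, had 27.0 CPM against 9.43 CPM. Pfkfb3, a regulator of glycolysis, had 20.2 CPM against 7.82 CPM.

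Of the 10 with the lowest fold by the same rule, which leaves out Foxa1 and Ltk for too few UMIs, Sfrp5 led. Gpc4, a heparan sulfate proteoglycan, had 23.4 CPM in members, 134 CPM in the rest and 1009 CPM on the Sfrp5 side, which is 8.85-fold lower (7.69 to 10.2) than in other visceral endoderm together. Sfrp1, another Wnt inhibitor, had 9.10 CPM against 65.5 CPM, F5, a coagulation factor, 10.8 CPM against 85.1 CPM, and Col23a1, a membrane collagen, 20.9 CPM against 158 CPM. The others were Ttc6, Abca4, Sirpa, Irs4 and 6330411D24Rik.

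By the same limits, which leave out Abcb11, the 15 genes with the highest fold over all other nuclei held 6 score genes, A1cf, Bmp6, Car8, Aass, Abcc2 and Slc2a2. The others were C8a, a complement component (13.9-fold), B3galt5, a glycosyltransferase (12.6-fold), Igsf5, a junction protein (11.2-fold), Ago4, Fmo2 and the noncoding genes Gm30624, Gm13270, Gm10732 and Gm31356. Gm13270 overlaps Cubn in the RefSeq annotation, so its 685 CPM may share reads with Cubn and is uncertain.

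Distal peaks with the highest fold over all other nuclei lay far from the score genes. The first, chr6:54415524-54416355, lies within the range of starts given for the noncoding gene 9130019P16Rik. It had a count in 13.1% of members, 5.01% of other visceral endoderm nuclei and 0.922% of all other nuclei, and was 14.8-fold more open than in all other nuclei (11.2 to 19.7) and 2.54-fold more open than in other visceral endoderm (1.83 to 3.55), the latter on fewer than 400 counts. A peak inside Il33 at chr19:29955025-29955959 had a count in 27.2% of members and was 13.2-fold more open (11.0 to 15.9). Of the 5 peaks with the highest fold over other visceral endoderm, chr1:135358286-135359321 inside Lmod1 stood 2.57-fold higher (1.96 to 3.38) and chr16:89829938-89830745 inside Tiam1 2.54-fold (1.94 to 3.33). The Tiam1 peak, too, lies within the range of starts given for its gene, more than 1000 bp from either end of it.

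To see how members vary, they were put in 3 bands of score, of 217, 217 and 216 nuclei. From the top to the bottom band, Bmp6 was at 462, 350.4 and 277 CPM, which the score sets. Hnf4a, which it does not use, was at 106, 97.3 and 86.9 CPM, and Ttr at 755, 749.6 and 840.1 CPM. The 6 promoter peaks of the score genes were 2.08-fold, 2.28-fold and 2.13-fold more open than in all other nuclei, with intervals that overlapped. Their distal peaks were 3.57-fold, 3.52-fold and 3.44-fold more open. The share of neighbours that were members was 57.5%, 52.5% and 47.2%. Doublet calls went the other way, at 3.69%, 7.83% and 13.4%, and their part in the neighbour shares was not tested beyond the recalculation without them.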

How the data were processed

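Nuclear RNA and accessible chromatin of E7.0 mouse nuclei were read in 1 library each. The authors deposited 1 matrix of raw counts, not normalized, with UMI counts per gene and counts per peak. Per the submitters' processing notes it was made with Cell Ranger ARC 2.0.0 on mm10, and the file headers name the same software. Other steps are not given in the sources used here. All 15341 barcodes carry 1 suffix and are distinct.

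Counts were summed over the nuclei of a group and divided by the group's total and multiplied by 1000000 (CPM). Intervals are 95% exact intervals, Poisson for counts and binomial for shares, and cover counting error only. For peaks, 86.4% of nonzero values were even, as when both ends of a fragment are counted, so intervals used fragments (the count divided by 2, rounded up). A gene with at least 200 UMIs, or a promoter or peak with at least 400 counts over both groups, was called at a fold of at least 2. The median fold of distal peaks against all other nuclei was 0.610, so folds there are read against that value. For neighbours, peaks open in 50 nuclei or more were binarised, weighted by TF-IDF and reduced to 30 singular vectors, leaving out the first. Scrublet, run through scanpy 1.11.5 with 0.1 as the expected doublet rate, marked doublets that were kept (1154 of all deposited nuclei, 7.52%). Thinning drew 3000 UMIs per nucleus, so no nucleus in range was left out. The RNA folds and calls were checked on simulated Poisson counts in which some genes were changed by known folds. Because the intervals use the same model, this checks the calculation only. Peak counts and variation between nuclei were not simulated. Python 3.11.15, numpy 2.4.6, scipy 1.17.1 and scikit-learn 1.9.0 were used. Promoter sequences are RefSeq's for GRCm38.p6, and Car8 had no entry in that table. Coordinates are those of the files, counted from 1.

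Named genes were the score genes, the members of fixed role lists, the 15 with the highest fold over all other nuclei, and the 10 highest and 10 lowest against other visceral endoderm, among genes with at least 200 UMIs over both groups and a UMI in at least 10% of members (for the lowest, of other visceral endoderm). Named peaks were the 8 and the 5 with the highest folds in those comparisons among distal peaks with at least 400 counts and a count in at least 5% of members, plus the promoter peaks and 2 distal peaks of the score genes. The members and all lists were chosen with earlier results of these data known. The text describes only some of the named genes and peaks, 2 of the 8 and 2 of the 5 among the latter, and the others are not reported here.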

Additional observations from a re-analysis of the deposited data

How the results depend on the processing

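No paired analysis was possible because the results come from no test. Of 61 recalculated values, 28 stayed the same, within the counting interval or, for counts of genes and peaks, within 1.5 times, and 29 moved without changing direction. Another 4 fell on the other side of 1, all in comparisons with other visceral endoderm in place of all other nuclei, and 1 of these did not differ from 1 beyond counting error. With the comparison group set at the 10th, 25th and 50th percentile, the fold of visceral endoderm markers in RNA went from 3.53 to 0.882, 0.792 and 0.691. That of their promoters went from 2.86 to 1.11, 1.04 and 0.982 (the last from 0.933 to 1.03), and that of score gene promoters from 2.16 to 1.30, 1.22 and 1.17. With the 500 and the 800 highest scores, the marker fold in RNA was 3.37 and 3.63 and the share of neighbours that were members 45.6% and 59.5%, against 52.4%. Without doublet calls, markers were at 3.82, their promoters at 3.07 and neighbours at 56.7%. With the score on thinned counts, markers were at 3.38, score gene promoters at 1.94 and neighbours at 45.4%. From 5000 to 20000 UMIs, markers were at 4.13, their promoters at 3.10 and neighbours at 62.8%. Promoters of 2000 bp to each side gave 2.58 for markers and 2.61 for score genes, and peaks set to 0 or 1 gave 2.73 for markers. Requiring only 1 UMI in each group called 7184 genes and a fold of 3 called 2537, against 4253. A minimum of 100 counts called 102336 distal peaks and a fold of 3 called 29495, against 44614. Chosen after seeing the data were the 25th percentile as a setting here and 2 other scores. Without Cubn in the score, markers were at 3.34, and 587 of the 650 members were shared. Without the 4 subtracted genes, markers were at 4.21, their promoters at 3.08 and neighbours at 58.9%, and 440 members were shared. On thinned counts 463 members were shared. The cause of these shifts was not tested. Single-nucleus counts of A1cf and Car8 are too few to place 1 nucleus by either gene.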

Other observations

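Single genes that mark other lineages stood apart from the rest of their lists. Runx1, a transcription factor of blood formation, was the 1 gene of 7 tested from the haemato-endothelial list to be called higher than in all other nuclei, while 6 were called lower, against 8.39% and 21.3% over all genes. It had 184 CPM in members, 91.3 CPM in the rest of visceral endoderm, 58.1 CPM on the Sfrp5 side and 44.9 CPM in all other nuclei, and was 2.08-fold higher than in other visceral endoderm (1.93 to 2.23). After thinning to 3000 UMIs, 40.6% of members and 20.3% of other visceral endoderm nuclei had a Runx1 UMI. Its promoter peaks were 1.33-fold more open than in other visceral endoderm (1.15 to 1.53). Kdr, Tal1 and Etv2, other genes of that list, had 6.29, 0.449 and 5.84 CPM in members against 46.6, 5.45 and 19.5 CPM in all other nuclei. Pdgfra, a growth factor receptor of mesoderm and primitive endoderm, had 137 CPM in members against 80.8 CPM in other visceral endoderm and 61.6 CPM in all other nuclei. It was the 1 gene of 7 tested from the embryonic mesoderm list to be called higher, and 6 were called lower. Mesp1, Mesp2 and Lefty2 of the same mesoderm list were each below all other nuclei, with Mesp1 at 22.1 against 80.3 CPM.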
